A study of Homo sapiens with 11 samples.

Results

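The 2 libraries compared here came from the human embryonic stem cell line H7 held in the same naive medium, 5iLA. One culture had received a control shRNA, a hairpin delivered by lentivirus and named Ctrl in the labels, and was collected 5 days after infection. The other had no treatment, and its labels give no time. These are 2 of the 11 libraries of the series, all of total RNA, with 1 library per group. The Ctrl shRNA 5iLA H7 library lies in a table with 8 other shRNA libraries, and the untreated 5iLA H7 library in a second table with untreated primed H7. A further 5 libraries stand beside them: H7 in 5iLA with the shRNAs named uCCNE1 and pCCNE1, H1 in the naive medium t2iGo with the control shRNA, untreated primed H7, and primed H1 with the control shRNA. The uCCNE1 and pCCNE1 libraries are labelled as knockdowns and are not replicates of the control. The shRNA libraries share lentiviral infection and collection on day 5, and the untreated pair shares neither. Infection, time, table and culture therefore cannot be told apart between the pair, and no p-value was computed.

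Human pluripotent stem cells in standard culture are called primed and resemble the epiblast after implantation. Media such as 5iLA, a mixture of kinase inhibitors with LIF and activin A, are used to hold them in a naive state nearer to the epiblast before implantation. Naive cells are known for transcription factors such as KLF17, KLF4 and TFCP2L1, for genes of the early embryo and germline such as DPPA3, DPPA5 and the NLRP genes, and for low levels of primed genes such as ZIC2, SFRP2 and THY1. How far each of the 2 cultures had gained the naive genes and lost the primed ones is the question addressed. The labels call both of them naive. Lists of 44 naive genes in 3 lists and 32 primed genes in 2 lists were used.

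Both cultures held most naive RNAs above their levels in primed H7, and the Ctrl shRNA culture held more of them than the untreated one. In the Ctrl shRNA culture 27 of the 38 tested naive genes were at least 2-fold higher than in the untreated culture, and 19 of the 22 tested primed genes at least 2-fold lower. Over all genes tested these shares were 7.13% higher and 9.49% lower. Of all 32 primed genes, tested or not, 11 reached 1 RPKM after scaling in the Ctrl shRNA culture and 26 in the untreated one, so many of the tested ones passed the filter on low values through the untreated library. For 36 of the 44 naive genes the untreated culture lay below the Ctrl shRNA culture and above untreated primed H7. For 25 of the 32 primed genes it lay above the Ctrl shRNA culture and below primed H7. The widest gap of all was in VIM, the intermediate filament vimentin, at 0.507 RPKM in the Ctrl shRNA culture and 119.9 RPKM in the untreated one. RPKM is a read count per kilobase of transcript and per M reads of the library.

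To set levels side by side, each library was scaled to the same median over the genes compared, and differences are given as log2(scaled RPKM + 1), Ctrl shRNA minus untreated unless another pair is named. The tables were normalized separately, so a level set across them carries this scaling. Levels of single genes in RPKM are printed before scaling unless called scaled. The scaling factors in 5iLA H7 were 1.0473 for Ctrl, 1.4455 for uCCNE1, 1.3974 for pCCNE1 and 0.95677 for the untreated library. They were 1.1865 for untreated primed H7, 0.48131 for Ctrl Primed H1 and 0.92451 for Ctrl t2iGo H1. An order of libraries read from the printed values can therefore change after scaling. Of 18763 gene entries with an mRNA identifier, 10106 had a mean of at least 1 RPKM over the pair and were tested, in the sense of a size threshold only. A gene was called where the difference was at least 1 log2 unit, or 2-fold. By that rule 721 entries (7.13%) were higher in the Ctrl shRNA culture and 959 (9.49%) lower, with a median difference of 0.06 over all of them. At 2 log2 units or more, 71 were higher and 249 lower. At 3 units, 4 were higher and 64 lower, so the widest differences were mostly genes with less RNA in the Ctrl shRNA culture. In bulk RNA, fewer cells of a type and less RNA per cell cannot be told apart.

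The estimated depth was 16.8 M reads in the Ctrl shRNA library and 25.1 M reads in the untreated one. One mapped read was then worth, for a 2 kb transcript, 0.0297 RPKM in the Ctrl shRNA library and 0.0199 RPKM in the untreated library, so values under about 0.1 RPKM rest on a few reads. Histone genes held 1.95% of mRNA-entry RPKM in the Ctrl shRNA library, 2.01% in the untreated 5iLA library, 4.18% in untreated primed H7 and 0.0176% in Ctrl Primed H1. Entries with a non-coding identifier held 30.9% of all RPKM in the Ctrl shRNA library and 34.7% in the untreated 5iLA library. Their share was 4.46% in Ctrl Primed H1. The primed H1 libraries with uCCNE1 and pCCNE1 were like it, at 4.70% and 4.50%, with histone shares of 0.0215% and 0.0107%. All primed H1 libraries thus stood apart in both measures. The median difference ran from -0.04 in the lowest quartile of transcript GC content to 0.30 in the highest, and from 0.19 in the quartile of shortest transcripts to -0.06 in that of the longest.

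**Figure D1:**
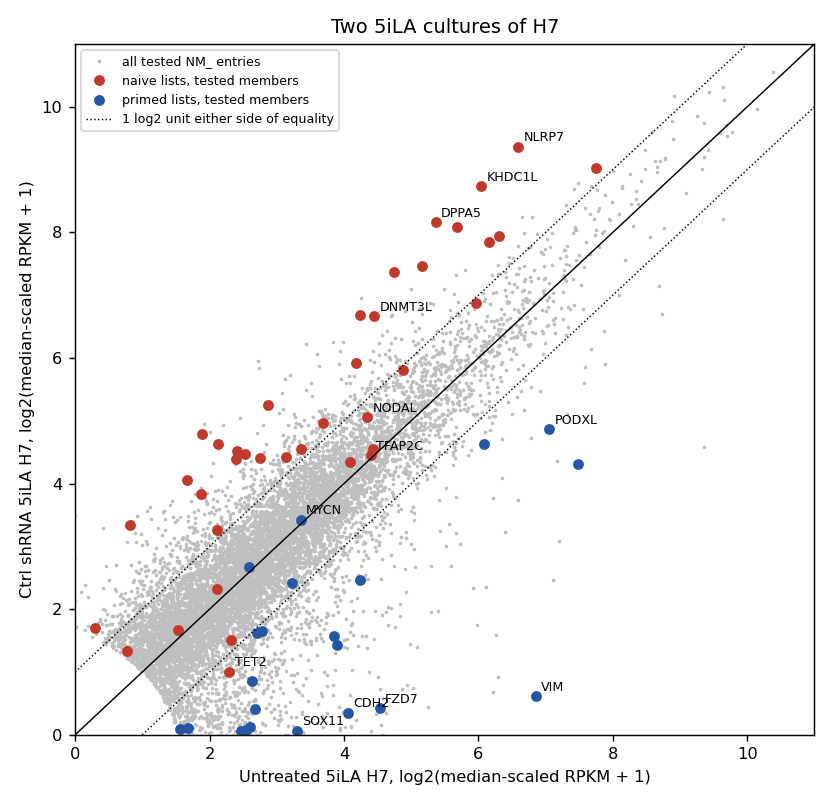
Level of each tested gene in the Ctrl shRNA 5iLA H7 library (vertical axis) and in the untreated 5iLA H7 library (horizontal axis), as log2(median-scaled RPKM + 1), with 10106 entries in grey, the 38 tested naive genes in red and the 22 tested primed genes in blue. Most red points lie above the upper dotted line (27 of 38) and most blue points below the lower one (19 of 22), while TFAP2C and MYCN lie close to the line of equality.

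The gap was widest in the list of germline-linked and early embryo genes. All 16 of its members were tested, and 15 were higher in the Ctrl shRNA culture, beside 7.13% of all genes. The median difference was 2.40 and the range 0.90 to 2.90. Set on a linear scale, the untreated culture held 8.44% to 53.2% of the scaled RPKM of the Ctrl shRNA culture, with a median of 16.5%. Promoters of a few leading genes are printed here, since these genes differed together while their promoters are unlike each other: the early embryo genes DPPA5, DPPA3 and NLRP7, and VIM at the other end of the comparison. Each is the 250 bases before the RefSeq start of the gene in build GRCh38.p14, read 5′ to 3′ on the gene's strand. Capitals mark CCACCC or its reverse complement GGGTGG, the letters of a KLF-type CACC box, and GCCNNNGGC, a palindrome known from AP-2 factors.
DPPA5: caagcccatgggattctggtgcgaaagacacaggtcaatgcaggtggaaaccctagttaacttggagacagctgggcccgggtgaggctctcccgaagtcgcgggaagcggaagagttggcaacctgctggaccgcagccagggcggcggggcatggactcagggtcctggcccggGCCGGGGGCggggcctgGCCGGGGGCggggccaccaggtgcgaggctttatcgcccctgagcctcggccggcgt
DPPA3: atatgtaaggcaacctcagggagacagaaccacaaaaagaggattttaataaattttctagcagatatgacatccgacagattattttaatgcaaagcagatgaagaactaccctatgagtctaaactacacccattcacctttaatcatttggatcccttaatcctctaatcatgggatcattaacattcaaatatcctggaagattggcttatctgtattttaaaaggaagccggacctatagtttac
NLRP7: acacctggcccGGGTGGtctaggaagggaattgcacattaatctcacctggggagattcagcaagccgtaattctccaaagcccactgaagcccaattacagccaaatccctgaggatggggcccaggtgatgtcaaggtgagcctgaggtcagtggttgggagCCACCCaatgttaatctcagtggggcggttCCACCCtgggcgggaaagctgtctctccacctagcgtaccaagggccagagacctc
VIM: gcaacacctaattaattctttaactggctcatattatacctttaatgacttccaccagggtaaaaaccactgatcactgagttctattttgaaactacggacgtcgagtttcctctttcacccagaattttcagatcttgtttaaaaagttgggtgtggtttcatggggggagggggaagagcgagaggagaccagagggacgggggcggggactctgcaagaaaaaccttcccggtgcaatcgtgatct
The DPPA5 window (chr6:73354277-73354526, minus strand) held 19 CG dinucleotides and 2 AP-2 palindromes. That of DPPA3 (chr12:7711183-7711432, plus strand) held 2 CG dinucleotides and neither motif. The NLRP7 window (chr19:54947531-54947780, minus strand) held 5 CG dinucleotides and 3 CACC boxes, and the VIM window (chr10:17227991-17228240, plus strand) 8 CG dinucleotides and neither motif. Over 27305 RefSeq promoters of that length, read on both strands, the median was 11 CG dinucleotides, 30.4% held a CACC box and 19.7% the AP-2 palindrome. A match is a description of letters and not a binding site. Over 8401 promoters of tested genes the median was 21 CG dinucleotides, 34.0% held a CACC box and 27.4% the AP-2 palindrome. For the germline-linked list, with 13 of 16 promoters in the table, the median was 5 CG dinucleotides, 30.8% held a CACC box and 15.4% the AP-2 palindrome. The pooled naive and primed lists were not compared, since 30 of 44 and 21 of 32 members had a promoter in the table.

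DPPA5 (NM_001025290, chromosome 6), an RNA-binding protein of early embryos, had 272.6 RPKM in the Ctrl shRNA culture, 155.9 RPKM with uCCNE1, 195.4 RPKM with pCCNE1, 41.97 RPKM in the untreated 5iLA culture and 0.151 RPKM in untreated primed H7. Its difference between the pair was 2.80. The 3 shRNA cultures were all above the untreated one, which was itself far above primed H7. DPPA3 (NM_199286, chromosome 12), also called STELLA, is a maternal-effect and germ cell factor that protects DNA methylation marks in the early embryo. It had 259.6 RPKM in the Ctrl shRNA culture, 172.0 RPKM with uCCNE1, 155.9 RPKM with pCCNE1, 52.7 RPKM in the untreated 5iLA culture and 0.165 RPKM in primed H7, and a difference of 2.41. NLRP7 (NM_139176, chromosome 19), a NOD-like receptor protein of oocytes and early embryos, reached 628.2 RPKM in the Ctrl shRNA culture, 361.3 RPKM with uCCNE1, 293.3 RPKM with pCCNE1, 99.4 RPKM in the untreated 5iLA culture and 0.361 RPKM in primed H7. It ranked above 99.9% of mRNA entries in the Ctrl shRNA library and above 98.9% in the untreated one. A high rank in both cultures therefore went with a difference of 2.78.

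KHDC1L, a KH-domain family gene, was at 406.7 RPKM in the Ctrl shRNA culture and 67.7 RPKM in the untreated one (2.70). C6orf221, the files' name for KHDC3L of the oocyte's subcortical maternal complex, was at 25.3 RPKM in the Ctrl shRNA culture and 2.82 RPKM in the untreated one, a difference of 2.90 and the largest of the list. OOEP, of the same complex, had the smallest relative level in the untreated culture, 0.805 RPKM beside 8.71 RPKM in the Ctrl shRNA culture. HORMAD1, a meiotic chromosome-axis protein (2.37), and the zinc-finger gene ZNF729 (2.44) lay in the same range. NLRP2 differed by 2.31, TRIM60 by 2.11, DPPA2 by 1.99 and GDF3, a TGF-beta ligand, by 1.69. DPPA4, a partner of DPPA2, was the member that did not reach the threshold (0.90). It had 110.6 RPKM in the Ctrl shRNA culture, 64.4 RPKM in the untreated 5iLA culture and 69.5 RPKM in untreated primed H7, so it hardly separated naive from primed H7 either. NLRP2 and NLRP7, the KHDC1 genes, the placental alkaline phosphatases and the clustered zinc-finger genes share sequence with close copies, so reads could be split between them.

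ALPPL2 and ALPP, alkaline phosphatases of the naive cell surface and placenta, depended on which shRNA library was used. ALPPL2 had 156.2 RPKM with the control shRNA, 28.3 RPKM with uCCNE1, 32.3 RPKM with pCCNE1 and 27.1 RPKM in the untreated culture. The control shRNA library alone stood high, and the differences from the untreated culture were 2.61 with Ctrl, 0.64 with uCCNE1 and 0.77 with pCCNE1. For the germline-linked list as a whole, 13 of the 16 members were at least 2-fold higher in each of the 3 shRNA libraries. Over all genes tested in the 3 pairs this held for 2.81%. These 3 comparisons share the untreated library.

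Naive transcription and chromatin factors differed less and less evenly. Of the 16 members 11 were tested, with a median difference of 0.92. In the Ctrl shRNA culture 5 were higher and 1 was lower, beside 7.13% and 9.49% of all genes. KLF4 (NM_004235, chromosome 9), a naive pluripotency factor, had 20.2 RPKM in the Ctrl shRNA culture, 14.0 RPKM with uCCNE1, 18.3 RPKM with pCCNE1, 5.00 RPKM in the untreated 5iLA culture and 0.401 RPKM in primed H7 (1.94). KLF5, of the same family, was at 28.8 RPKM in the Ctrl shRNA culture and 12.4 RPKM in the untreated one (1.27). TFCP2L1, a naive factor of the grainyhead family, was at 8.17 RPKM in the Ctrl shRNA culture and 3.47 RPKM in the untreated one (1.15). In each of these 3 genes the order was Ctrl shRNA 5iLA, untreated 5iLA, primed H7.

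DNMT3L (NM_175867, chromosome 21), the catalytically inactive partner of the de novo DNA methyltransferases, was the member with the widest gap. It had 96.0 RPKM in the Ctrl shRNA culture, 77.8 RPKM with uCCNE1, 98.0 RPKM with pCCNE1, 21.8 RPKM in the untreated 5iLA culture and 0.206 RPKM in primed H7, a difference of 2.22. PRDM14, a germ cell and pluripotency regulator, had 21.5 RPKM in the Ctrl shRNA culture, 9.67 RPKM in the untreated 5iLA culture and 8.28 RPKM in primed H7, so the untreated 5iLA culture was close to primed H7 for this gene. ZFP42, also called REX1, differed by 0.92 and did not reach the threshold. It stood at 51.0 RPKM in Ctrl Primed H1 and 1.26 RPKM in untreated primed H7, so the 2 primed libraries are unlike each other for it.

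Several factors did not separate the pair. TFAP2C, an AP-2 factor needed for human naive pluripotency, was at 19.9 RPKM in the Ctrl shRNA culture, 21.0 RPKM in the untreated 5iLA culture and 1.31 RPKM in primed H7, with a difference of 0.05. TBX3 was at 0.14, SOX15 at 0.20 and NR5A2 at 0.55. TET2, a DNA demethylase, was the lower one, with 0.961 RPKM in the Ctrl shRNA culture and 4.08 RPKM in the untreated one (-1.29). With the uCCNE1 library in place of Ctrl the TET2 difference was 0.16, and with pCCNE1 it was 0.23, so only the control shRNA library was low. KLF17, a marker of the human naive state, was below the 1 RPKM filter. It had 0.728 RPKM in the Ctrl shRNA culture, 0.693 RPKM with uCCNE1, 1.23 RPKM with pCCNE1 and 0.0248 RPKM in the untreated 5iLA culture, and it was listed at 0 in untreated primed H7, Ctrl Primed H1 and Ctrl t2iGo H1. The untreated value is near that of 1 read. KLF2, ESRRB, ARGFX and DPRX were also below the filter, and of these ESRRB did not exceed 0.1 RPKM in either culture of the pair.

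Among the 12 naive surface and signalling genes 11 were tested, with a median difference of 1.30. Of these 7 were called higher, beside 7.13% of all genes. FGF4, a growth factor of the early epiblast, had 22.8 RPKM in the Ctrl shRNA culture, 9.995 RPKM with uCCNE1, 9.22 RPKM with pCCNE1, 3.51 RPKM in the untreated 5iLA culture and 0.0674 RPKM in primed H7 (2.51). SUSD2, a surface protein used to sort naive cells, had 19.3 RPKM in the Ctrl shRNA culture, 13.8 RPKM with uCCNE1, 39.9 RPKM with pCCNE1, 6.01 RPKM in the untreated 5iLA culture and 0.253 RPKM in primed H7 (1.65). For both genes every shRNA library lay above the untreated 5iLA library. A4GALT, a glycosyltransferase, differed by 1.97, the mitochondrial carrier SLC25A16 by 1.74, the NODAL co-receptor TDGF1 by 1.64, GPR160 by 1.30 and IFITM1 by 1.28. NODAL (0.71), the LIF co-receptor IL6ST (0.26) and ST6GAL1 (0.13) did not reach the threshold. LIFR, the LIF receptor, was at -0.81, with 1.77 RPKM in the Ctrl shRNA culture and 4.18 RPKM in the untreated one.

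Pooled over the 3 lists, the 38 tested naive genes had a median difference of 1.67, and 1.45 with no filter on low values. In each of the 3 shRNA libraries 24 of the 38 were at least 2-fold higher than in the untreated culture. Over all genes tested in the 3 pairs this held for 2.81%. Counting all 44 members, 38 reached 1 scaled RPKM in the Ctrl shRNA culture, 35 in the untreated 5iLA culture, 16 in Ctrl t2iGo H1, 13 in untreated primed H7 and 12 in Ctrl Primed H1. By this count of genes present, the untreated culture was close to the Ctrl shRNA culture. By amount it was not: the summed scaled RPKM of the 44 genes was 3808 in the Ctrl shRNA culture, 979 in the untreated 5iLA culture, 382 in Ctrl t2iGo H1, 363 in untreated primed H7 and 359 in Ctrl Primed H1.

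**Figure D2:**
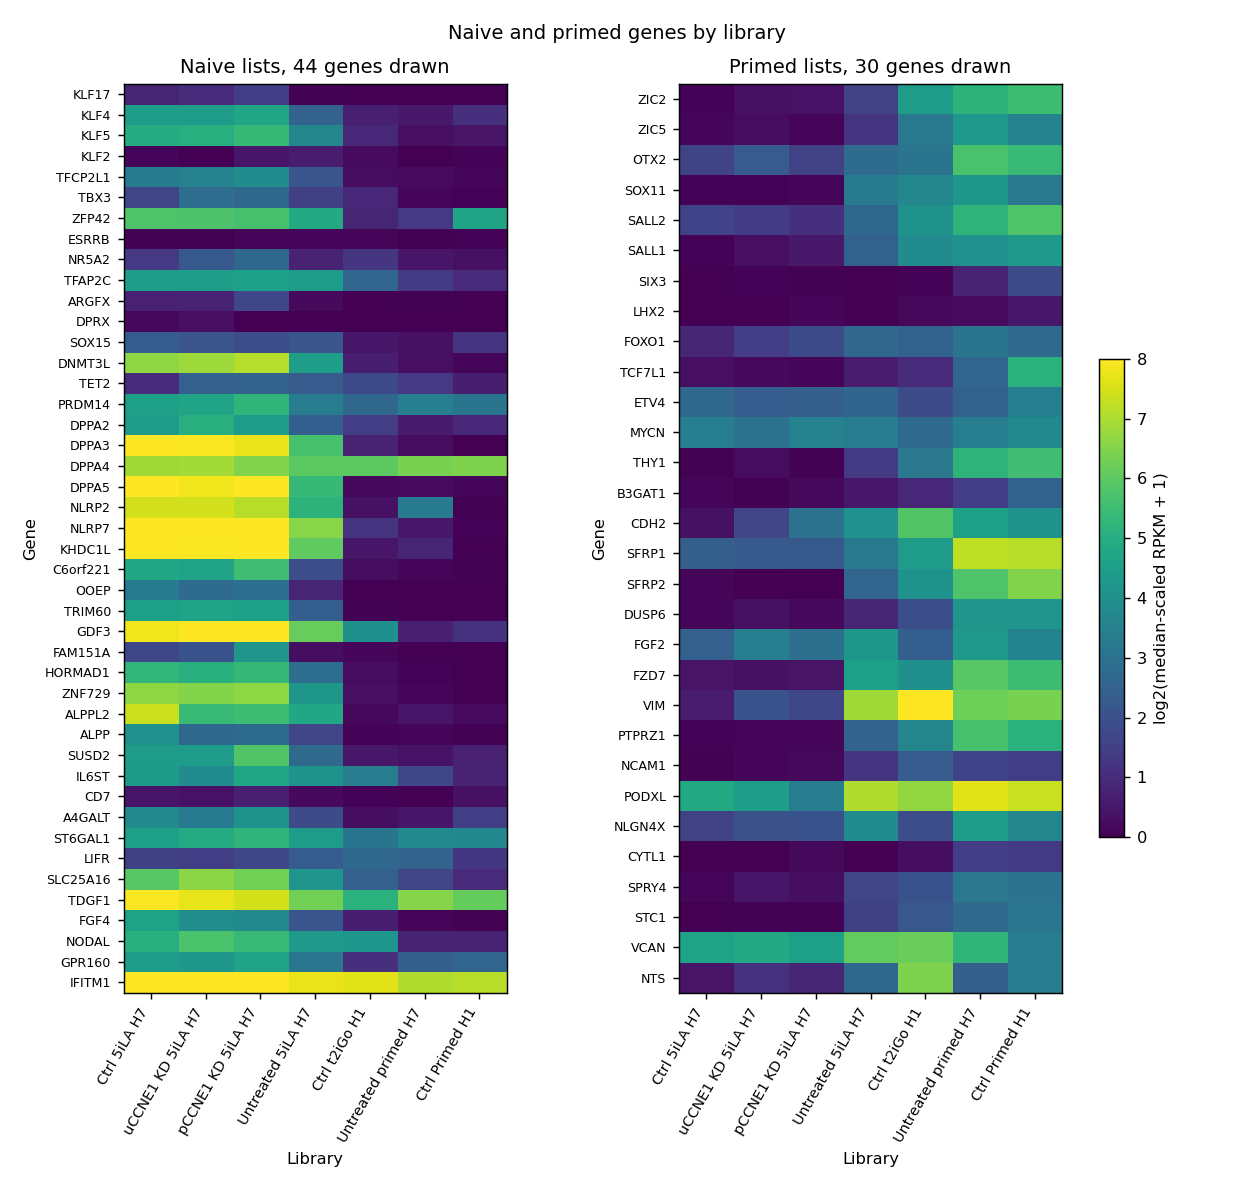
Level of each naive gene (left) and primed gene (right) in 7 libraries, in colour as log2(median-scaled RPKM + 1), with 3 H7 5iLA shRNA libraries on the left of each panel and untreated 5iLA H7 next to them. Untreated 5iLA H7 is dimmer than the shRNA libraries for most naive genes (DPPA3, DPPA5, DNMT3L) and brighter for most primed genes (SOX11, FZD7, VIM). The primed panel draws 30 of the 32 genes counted in the lists.

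Primed genes gave the mirror picture. Of the 32 members 22 were tested. In the Ctrl shRNA culture none was called higher and 19 were called lower, beside 9.49% of all genes. The median difference was -2.23, or -1.49 with no filter on low values. Since the filter favours members that are high in the untreated library, levels of all members are the plainer description. Counting all 32, 11 reached 1 scaled RPKM in the Ctrl shRNA culture, 26 in the untreated 5iLA culture, 27 in Ctrl t2iGo H1, 30 in untreated primed H7 and 31 in Ctrl Primed H1. In each of the 3 shRNA libraries 15 of the 22 tested genes were at least 2-fold lower than in the untreated culture, as were 5.19% of all genes tested in the 3 pairs. The summed scaled RPKM of the 32 was 106 in the Ctrl shRNA culture, 655 in the untreated 5iLA culture, 1075 in Ctrl t2iGo H1, 1662 in untreated primed H7 and 1437 in Ctrl Primed H1. The untreated 5iLA culture thus held an intermediate amount, and a number of genes present near that of the primed libraries.

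In the primed transcription factor list 9 of 13 members were tested and 7 were lower, beside 9.49% of all genes, with a median of -1.48. With the filter at 5 RPKM that median was 0.00802. SOX11 (NM_003108, chromosome 2), a factor of early neural cells, had 0.0451 RPKM in the Ctrl shRNA culture, 0.0382 RPKM with uCCNE1, 0.0733 RPKM with pCCNE1, 9.23 RPKM in the untreated 5iLA culture and 15.2 RPKM in primed H7 (-3.23). ZIC2, a zinc-finger factor of the primed state, had 0.0591 RPKM in the Ctrl shRNA culture, 0.205 RPKM with uCCNE1, 0.224 RPKM with pCCNE1, 2.04 RPKM in the untreated 5iLA culture and 29.4 RPKM in primed H7 (-1.48). In the untreated 5iLA culture ZIC2 was thus at 5.59% of its scaled level in primed H7, and SOX11 at 49.1%. SALL1 (-2.41), FOXO1 (-1.76), OTX2 (-1.14) and SALL2 (-1.09) were also called lower. ETV4 (0.08) and MYCN (0.07) differed little in the pair and were near their levels in primed H7.

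The primed surface and signalling list had 13 of 19 members tested, with a median of -2.28. Of these 12 were lower, beside 9.49% of all genes. VIM (NM_003380, chromosome 10) had 0.507 RPKM in the Ctrl shRNA culture, 2.09 RPKM with uCCNE1, 1.60 RPKM with pCCNE1, 119.9 RPKM in the untreated 5iLA culture, 62.1 RPKM in primed H7 and 339.8 RPKM in Ctrl t2iGo H1 (-6.24). The level in the Ctrl shRNA culture was 0.463% of that in the untreated culture, which lay above primed H7. FZD7, a WNT receptor, had 0.330 RPKM in the Ctrl shRNA culture, 0.200 RPKM with uCCNE1, 0.246 RPKM with pCCNE1, 23.1 RPKM in the untreated 5iLA culture and 50.1 RPKM in primed H7 (-4.10). CDH2, or N-cadherin, was at 0.263 RPKM in the Ctrl shRNA culture, 1.52 RPKM with uCCNE1, 5.07 RPKM with pCCNE1, 16.3 RPKM in the untreated 5iLA culture and 19.0 RPKM in primed H7 (-3.71). All 3 shRNA libraries were below the untreated one for these genes, though for CDH2 the 3 differed widely among themselves.

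PODXL, a sialomucin of the pluripotent cell surface, was at 26.9 RPKM in the Ctrl shRNA culture, 138.1 RPKM in the untreated 5iLA culture and 168.3 RPKM in primed H7 (-2.19). PTPRZ1, a receptor phosphatase (-2.47), SFRP2, a secreted WNT antagonist (-2.46), the synaptic adhesion gene NLGN4X (-2.28), NTS (-2.26), FGF2 (-1.78), SPRY4 (-1.57) and the proteoglycan VCAN (-1.45) were also called lower. SFRP1, a related WNT antagonist, was at -0.81, and it had 4.13 RPKM in the Ctrl shRNA culture, 8.74 RPKM in the untreated 5iLA culture and 126.1 RPKM in primed H7. THY1, a classic primed surface marker, fell below the filter, with 0.0248 RPKM in the Ctrl shRNA culture, 1.63 RPKM in the untreated 5iLA culture and 30.3 RPKM in primed H7. DUSP6, a feedback phosphatase of ERK, was likewise untested, at 0.10 RPKM in the Ctrl shRNA culture, 0.863 RPKM in the untreated 5iLA culture and 14.4 RPKM in primed H7.

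Primed genes were thus uneven in the untreated 5iLA culture when set against primed H7 of the same table. As a percentage of the scaled level in primed H7, the 32 members had a median of 28.1% in the untreated 5iLA culture, and 12 of them were at 50% or more. THY1 was at 4.35%, DUSP6 at 4.81%, SFRP1 at 5.59% and PTPRZ1 at 9.79%. CDH2, at 69.2%, PODXL, at 66.2%, NLGN4X, at 67.6%, and FGF2, at 98.1%, lay nearer to primed H7. VIM (156%), NTS (124%), VCAN (184%) and ETV4 (110%) were above primed H7.

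Each 5iLA culture was also set against a primed library of its own table. Between Ctrl 5iLA H7 and Ctrl Primed H1, 18.0% of 11607 tested entries were higher in 5iLA and 23.0% lower. Between untreated 5iLA H7 and untreated primed H7, 6.64% of 10261 were higher and 6.44% lower. The first pair differs in line as well as medium. Its primed library, like the other primed H1 libraries, stood apart in histone and non-coding RNA as given above. What part the line and these RNAs had in the values was not tested. Of the naive genes, 34 of 38 were higher in the Ctrl shRNA pair (median 3.94), and 27 of 35 in the untreated pair (median 1.96). With a pseudocount of 0.1 these naive medians were 5.34 in the Ctrl shRNA pair and 3.62 in the untreated pair. Primed genes gave 28 of 31 lower in the Ctrl shRNA pair (median -3.63), and 15 of 28 in the untreated pair (median -1.29). The filter admits a gene that is high in either library alone. Of all 32 primed genes, 11 reached 1 scaled RPKM in the Ctrl shRNA culture and 31 in Ctrl Primed H1. Of all 44 naive genes, 38 reached it in the Ctrl shRNA culture and 12 in Ctrl Primed H1. Many tested members of that pair thus passed through the library where they are high.

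Setting the Ctrl shRNA culture against untreated primed H7, the same line in the other table, gave a naive median of 3.83 with 33 of 37 higher, and a primed median of -3.85 with 24 of 27 lower. The background there was 12.1% higher and 13.0% lower of 10148 entries. These comparisons share libraries with one another, and the same limit of the filter holds for them and for the counts that follow. Gene by gene, the 35 naive genes tested in both same-table pairs had medians of 4.08 for the Ctrl shRNA pair and 1.96 for the untreated pair, and for 32 of them the difference was larger in size in the Ctrl shRNA pair. It was also larger in size there for all 28 primed genes tested in both, with medians of -3.83 for the Ctrl shRNA pair and -1.29 for the untreated pair. VCAN was the primed gene called higher in the Ctrl shRNA pair (1.41), and it was at 0.88 in the untreated pair. The 3 naive genes with the opposite order were ZFP42, at 1.23 in the Ctrl shRNA pair and 3.54 in the untreated pair, SOX15, at 1.30 in the Ctrl shRNA pair and 1.72 in the untreated pair, and TET2, at 0.47 in the Ctrl shRNA pair and 0.96 in the untreated pair.

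**Figure D3:**
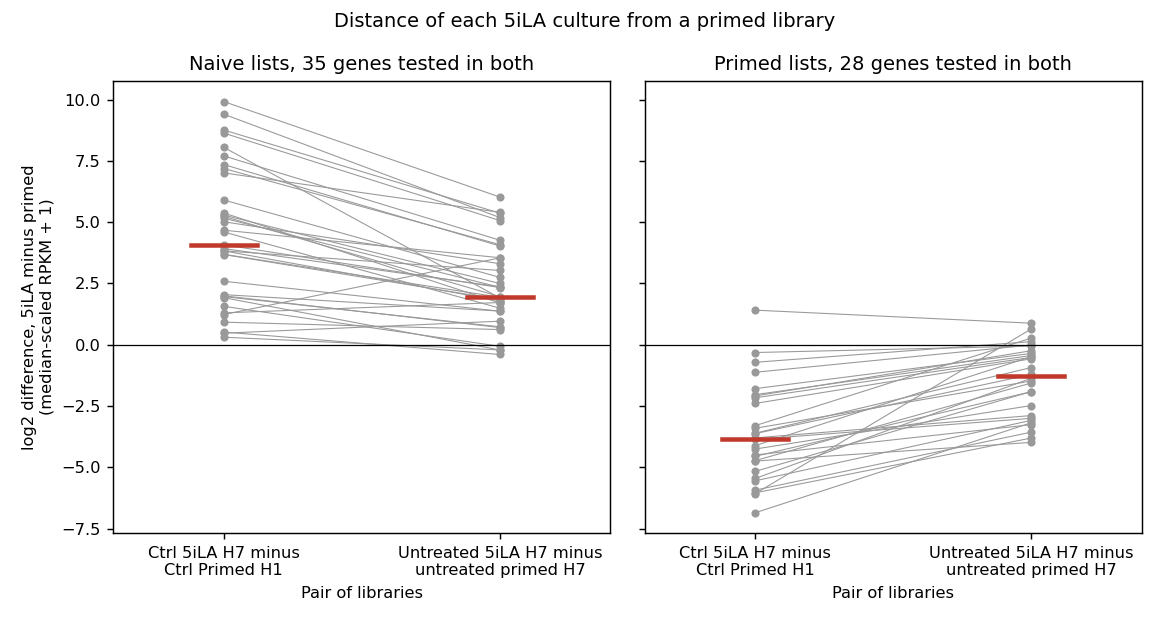
Log2 difference of each naive gene (left panel, 35 genes) and primed gene (right panel, 28 genes) between a 5iLA library and a primed library of the same table, for the Ctrl shRNA pair and the untreated pair, with a line per gene and a red bar at the median. Values lie further from 0 in the Ctrl shRNA pair, whose medians are 4.08 and -3.83, than in the untreated pair, whose medians are 1.96 and -1.29.

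Across the 10106 entries, the Ctrl shRNA library was closest in rank to the other shRNA libraries of its culture, with Spearman coefficients of 0.948 for uCCNE1 and 0.940 for pCCNE1. Its coefficient with untreated 5iLA H7 was 0.816, with untreated primed H7 0.725, with Ctrl t2iGo H1 0.720 and with Ctrl Primed H1 0.610. Untreated 5iLA H7 was closer to Ctrl t2iGo H1 (0.900) and to untreated primed H7 (0.856) than to Ctrl 5iLA H7. These coefficients run over genes of 1 library each, which share depth and base composition within a library, and are descriptions only.

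Core pluripotency genes were present in both cultures. All 14 tested members reached 1 scaled RPKM in both, with a median difference of 0.32. POU5F1, or OCT4, had 84.6 RPKM in the Ctrl shRNA culture, 44.2 RPKM with uCCNE1, 51.2 RPKM with pCCNE1, 35.3 RPKM in the untreated 5iLA culture and 40.0 RPKM in primed H7 (1.37). NANOG had 129.7 RPKM in the Ctrl shRNA culture, 62.0 RPKM with uCCNE1, 74.7 RPKM with pCCNE1, 32.4 RPKM in the untreated 5iLA culture and 6.23 RPKM in primed H7 (2.10). SOX2, the partner of OCT4, differed by 0.47. LIN28A, which blocks let-7 processing, had 66.8 RPKM in the Ctrl shRNA culture, 61.7 RPKM with uCCNE1, 57.9 RPKM with pCCNE1, 212.1 RPKM in the untreated 5iLA culture and 195.4 RPKM in primed H7 (-1.52). On LIN28A the untreated culture was near primed H7, while all 3 shRNA libraries were lower.

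Targets and feedback genes of FGF-ERK signalling, the pathway that 5iLA blocks at several kinases, had lower levels in the Ctrl shRNA culture. Counting all 18 members, 5 reached 1 scaled RPKM in the Ctrl shRNA culture, 15 in the untreated 5iLA culture and 16 in primed H7. The 12 tested members passed the filter largely through the untreated library. Of them 9 were called lower, beside 9.49% of all genes, and none higher. Their median was -1.28 with Ctrl, -0.64 with uCCNE1 and -0.78 with pCCNE1, and -0.96 for Ctrl with no filter. Cyclin D1, CCND1, was at 2.62 RPKM in the Ctrl shRNA culture, 3.68 RPKM with uCCNE1, 3.61 RPKM with pCCNE1, 23.7 RPKM in the untreated 5iLA culture and 8.90 RPKM in primed H7 (-2.66). SPRED1, an inhibitor of RAS-ERK signalling, was at -2.10 and the early response gene PHLDA1 at -1.95. In all 3 shRNA libraries, 3 of 11 members were at least 2-fold lower than in the untreated culture, as were 5.19% of all genes tested in the 3 pairs. Against primed H7 the untreated 5iLA culture had 1 of 15 members higher and 4 lower, beside 6.64% and 6.44% of all genes, with a median of -0.21. The Ctrl shRNA culture had 16 of 17 lower than Ctrl Primed H1, beside 23.0% of all genes. Of all 18 members 17 reached 1 scaled RPKM in Ctrl Primed H1, so the filter favoured members high there.

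Among DNA methylation genes, beside DNMT3L, GADD45A (-1.47) was called lower with TET2, and the maintenance methyltransferase DNMT1 was at -0.82. Of the NODAL-activin list 3 of 14 were higher, GDF3, TDGF1 and the nuclear effector FOXH1 (1.24), beside 7.13% of all genes. CER1, a secreted NODAL antagonist, was lower, with 0.108 RPKM in the Ctrl shRNA culture and 6.38 RPKM in the untreated one (-2.67). The LIF-STAT3 list had only the feedback gene SOCS3 past the threshold (-1.52). Of 15 WNT targets, 4 reached 1 scaled RPKM in the Ctrl shRNA culture and 9 in the untreated one. The filter thus favoured those high in the untreated library. LEF1 (-2.39), NKD1 (-1.43) and RNF43 (-1.29) were lower, as 3 of 6 tested, beside 9.49% of all genes. AXIN2, the standard feedback target, was at -0.28. The median of that list was -0.78 with Ctrl, or -0.27 with no filter, 0.26 with uCCNE1 and 0.12 with pCCNE1. PRC2 subunits showed AEBP2 at 1.27 and RBBP7 at -1.10, with the other 9 under the threshold.

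Imprinted genes went both ways, with 2 of 16 higher and 6 lower (median -0.52), beside 7.13% and 9.49% of all genes. PEG3 was at 6.82 RPKM in the Ctrl shRNA culture and 1.05 RPKM in the untreated one (2.02). PEG10 was at 6.90 RPKM in the Ctrl shRNA culture and 54.1 RPKM in the untreated one (-2.68), and IGF2 at 0.413 RPKM in the Ctrl shRNA culture and 5.26 RPKM in the untreated one (-2.07). The 8-cell list, of genes of embryonic genome activation, had no tested member of 18. Its summed scaled RPKM was 7.01 in the Ctrl shRNA culture, 13.2 with uCCNE1, 18.5 with pCCNE1, 1.93 in the untreated 5iLA culture and 1.46 in primed H7, all of them low.

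Over all genes tested 7.13% were called higher and 9.49% lower. Interferon-induced genes had 4 of 13 higher and 4 lower. Their median was -0.01, which was 1.21 with the filter at 5 RPKM and 0.52 with uCCNE1 in place of Ctrl. MX1, an antiviral GTPase, was at 9.77 RPKM in the Ctrl shRNA culture, 9.59 RPKM with uCCNE1, 7.87 RPKM with pCCNE1, 0.925 RPKM in the untreated 5iLA culture and 0.833 RPKM in primed H7 (2.57). BST2, or tetherin, was at 2.77 RPKM in the Ctrl shRNA culture, 0.216 RPKM with uCCNE1, 19.3 RPKM in the untreated 5iLA culture and 17.5 RPKM in primed H7, and was listed at 0 with pCCNE1 (-2.32). These antiviral genes therefore stood on opposite sides. Of 19 p53 targets 5 were lower, FAS (-1.64), GADD45A, TP53I3 (-1.39) and CDKN1A (-1.30) among them, and none higher. Their median was -0.06, with 9 of the 19 above 0. Heat shock genes had HSP90AA1 (1.61) and HSPA4L (1.18) higher of 13.

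Cell cycle and glycolysis lists lay close to the median of all genes, 0.06. In the respiratory chain list 20 of 23 tested members lay above 0, and in the ribosomal protein list 28 of 31. Of all 10106 genes tested 5388 lay above 0. The shares called over all genes were 7.13% higher and 9.49% lower. Of 24 G2 and mitosis genes 1 was called higher, CENPA (1.56), and of 24 DNA replication genes 2 lower, POLA1 (-1.26) and CCNE2 (-1.20). Glycolysis had 3 of 16 lower, SLC2A3 (-1.99), ENO1 (-1.54) and PFKP (-1.02), and the respiratory chain 3 of 23 higher, CYC1, NDUFA1 and COX4I1 (1.22, 1.19 and 1.01). Medians were 0.11 for mitosis, 0.12 for replication, 0.09 for glycolysis, 0.08 for PRC2 and 0.39 for the respiratory chain; without scaling, or with equal sums, the first 4 medians fell just below 0. Quantile normalization did the same for mitosis, glycolysis and PRC2. PFKP was at 0.37 with uCCNE1 and 0.40 with pCCNE1 in place of Ctrl, so that call rests on the control shRNA library. Cytosolic ribosomal protein genes were at a median of 0.59 with 3 of 31 higher.

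**Figure D4:**
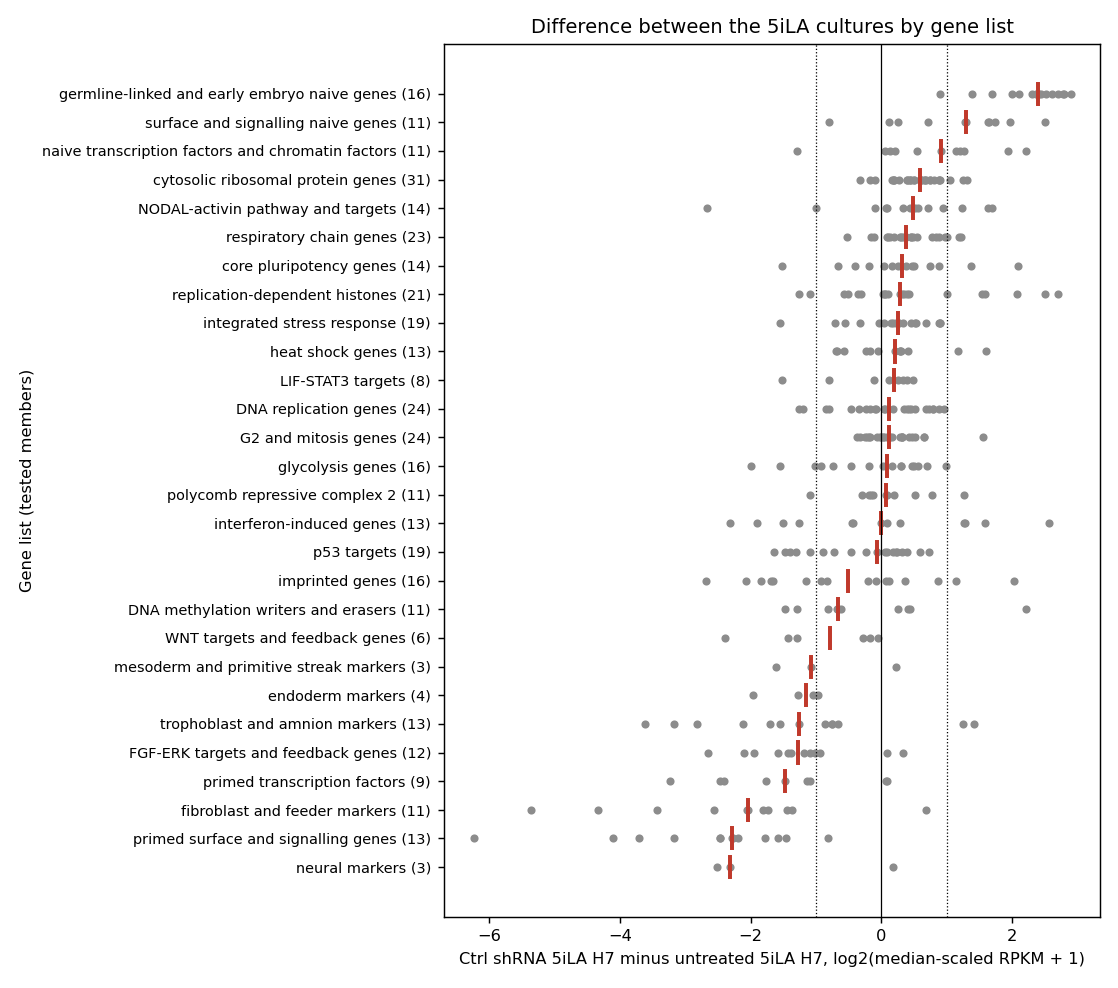
Log2 difference, Ctrl shRNA 5iLA H7 minus untreated 5iLA H7, of the tested members of each gene list with at least 3 of them (grey points, number in brackets) and the list median (red bar), with dotted lines at the 2-fold threshold. The 3 naive lists lie at the top with medians of 2.40, 1.30 and 0.92, and primed, fibroblast and neural lists at the bottom.

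Most tested markers of other cell types were lower in the Ctrl shRNA culture than in the untreated one, as primed genes were. Over all genes tested 9.49% were called lower. The filter on low values favours markers that are high in the untreated library. Between untreated 5iLA H7 and primed H7, fibroblast and trophoblast markers went the other way from primed genes. Of tested fibroblast markers 7 of 13 were higher in 5iLA and 2 lower, and 9 of 10 trophoblast markers were higher. The shares of all genes were 6.64% higher and 6.44% lower. Of all 21 trophoblast markers 4 reached 1 scaled RPKM in primed H7 and 13 in untreated 5iLA. Many of the tested ones therefore passed the filter through 5iLA. The neural list had 0 of 3 called, the endoderm list 1 of 4 higher, and the mesoderm list 2 higher and 1 lower of 4. Of 18 fibroblast and feeder markers, 4 reached 1 scaled RPKM in the Ctrl shRNA culture, 14 in the untreated 5iLA culture and 11 in primed H7, and the summed level was 128 in the Ctrl shRNA culture, 234 with uCCNE1, 110 with pCCNE1, 268 in the untreated 5iLA culture and 135 in primed H7. Of the 11 that passed the filter, largely through the untreated library, 10 were lower in the Ctrl shRNA culture, with a median of -2.03, or -1.33 with no filter. TAGLN, an actin-binding protein, was at 0.862 RPKM in the Ctrl shRNA culture, 3.76 RPKM with uCCNE1, 1.02 RPKM with pCCNE1, 81.0 RPKM in the untreated 5iLA culture and 15.04 RPKM in primed H7 (-5.37). COL1A2 was at -3.44 and smooth muscle actin ACTA2 at -4.34. The fibroblast matrix genes DCN and LUM were at 0.337 and 1.66 RPKM in the untreated culture, low beside TAGLN. They were chosen after their values were seen and do not stand for the list, of which 14 of 18 members reached 1 scaled RPKM there. SPARC, which makes up most of the sum in the Ctrl shRNA culture, at 110.4 RPKM in the Ctrl shRNA culture and 74.7 RPKM in the untreated one, did not reach the threshold.

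Of 21 trophoblast and amnion markers, 4 reached 1 scaled RPKM in the Ctrl shRNA culture, 13 in the untreated 5iLA culture and 4 in primed H7, and the sum was 79.4 in the Ctrl shRNA culture, 178 with uCCNE1, 154 with pCCNE1, 284 in the untreated 5iLA culture and 47.8 in primed H7. The 13 tested markers passed the filter largely through the untreated library. Of these 7 were lower and 2 higher, beside 9.49% and 7.13% of all genes. Their median was -1.27, or -0.66 with no filter. KRT18, a simple-epithelium keratin, was at 18.6 RPKM in the Ctrl shRNA culture, 35.8 RPKM with uCCNE1, 31.3 RPKM with pCCNE1, 150.0 RPKM in the untreated 5iLA culture and 24.1 RPKM in primed H7 (-2.82). Its partner KRT8 (-3.17), IGFBP3 (-3.62) and GABRP (-2.11) were also lower. The trophoblast factors GATA3 and TFAP2A were at 2.32 and 2.19 RPKM in the untreated culture, and CDX2 at 0.101 RPKM. CGA, the glycoprotein hormone alpha chain, was 1 of the 2 called higher. It had 39.5 RPKM in the Ctrl shRNA culture, 17.5 RPKM in the untreated 5iLA culture and 0.126 RPKM in primed H7 (1.26). The other marker called higher was at 1.42.

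Neural, mesoderm and endoderm lists had 3, 3 and 4 tested members. Their medians were -2.32, -1.07 and -1.16, and -0.07, -0.56 and -0.12 with no filter. NES (-2.52), MAP2 (-2.32), SNAI2 (-1.61), TWIST1 (-1.07), LAMB1 (-1.96), COL4A1 (-1.27) and COL4A2 (-1.04) were lower. TUBB3 (0.18), SNAI1 (0.22) and FN1 (-0.96) did not reach the threshold. With uCCNE1 in place of Ctrl, COL4A1 was at 0.14 and COL4A2 at 0.16, and with pCCNE1 COL4A2 was at 0.26. The endoderm factors SOX17, FOXA2 and FOXA1 were listed at 0 in the Ctrl shRNA culture and did not exceed 0.0674 RPKM in the untreated one. Whether other cells in the cultures had a part in the gene differences was not tested.

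The 15 largest differences in each direction, among genes with at least 5 RPKM in the higher library, hold both list members and others. On the higher side, with differences from 2.61 to 3.498, they were RPL36A-HNRNPH2, CRIP1, TUBB4A, HIST1H4L, C6orf221, LUZP4, SNURF, GAL, DPPA5, SYCP3, NLRP7, CTSF, HIST1H1B, KHDC1L and ALPPL2. Of these, 9 were under 1 scaled RPKM in primed H7, beside 7.6% of all genes tested. SYCP3, a protein of the meiotic synaptonemal complex, was at 70.3 RPKM in the Ctrl shRNA culture, 31.2 RPKM with uCCNE1, 26.5 RPKM with pCCNE1, 10.3 RPKM in the untreated 5iLA culture and 0.153 RPKM in primed H7 (2.78). The neuropeptide gene GAL was at 26.0 RPKM in the Ctrl shRNA culture, 11.5 RPKM with uCCNE1, 5.92 RPKM with pCCNE1 and 3.17 RPKM in the untreated 5iLA culture, so the shRNA libraries spread widely. CRIP1 was at 58.3 RPKM in the Ctrl shRNA culture and 5.83 RPKM in the untreated one (3.24). RPL36A-HNRNPH2 is a read-through entry and was listed at 0 in the untreated culture, SNURF overlaps SNRPN, and histone genes resemble each other closely, so these values are less certain.

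On the lower side, with differences from -4.14 to -6.24, stood VIM, PRTG, TAGLN, CPE, TMSB4X, UCHL1, CRABP2, GREM1, THBS1, ACTA2, MARCKS, ENC1, WLS, ANKRD1 and NRIP1. TMSB4X, thymosin beta 4, which binds actin monomers, was at 22.0 RPKM in the Ctrl shRNA culture, 18.9 RPKM with uCCNE1, 14.1 RPKM with pCCNE1, 683.4 RPKM in the untreated 5iLA culture and 528.4 RPKM in primed H7 (-4.77). UCHL1, a ubiquitin hydrolase, was at 1.93 RPKM in the Ctrl shRNA culture, 3.12 RPKM with uCCNE1, 3.98 RPKM with pCCNE1, 78.8 RPKM in the untreated 5iLA culture and 100.9 RPKM in primed H7 (-4.66). After scaling, TMSB4X was at 653.9 in the untreated 5iLA culture, near its 627.0 in primed H7. UCHL1 was at 75.4 scaled RPKM in the untreated 5iLA culture, below its 119.8 in primed H7. Of the 15, UCHL1 and MARCKS were higher in primed H7 than in the untreated 5iLA culture, and the other 13 were lower in primed H7. PRTG, for example, was at 0.578 RPKM in the Ctrl shRNA culture, 77.1 RPKM in the untreated 5iLA culture and 8.29 RPKM in primed H7, and WLS at 2.24 RPKM in the Ctrl shRNA culture, 65.1 RPKM in the untreated 5iLA culture and 2.07 RPKM in primed H7. The secreted BMP antagonist GREM1 was listed at 0 in the Ctrl shRNA culture and stood at 23.9 RPKM in the untreated 5iLA culture and 0.240 RPKM in primed H7. GREM1 and ANKRD1 were thus high in the untreated 5iLA culture alone of these 3. In primed H7 13 of the 15 genes reached 1 scaled RPKM, as did most genes tested, with 7.6% of all of them under it.

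Over all called genes, 214 of the 721 higher ones (29.7%) were under 1 scaled RPKM in primed H7, as were 103 of the 959 lower ones (10.7%) and 768 of all 10106 tested (7.599%). In all 3 shRNA libraries, 271 of 9660 entries were higher than in the untreated culture and 501 were lower.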

How the data were processed

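RNA was sequenced from total RNA of 11 libraries, and the authors deposited RPKM values per gene in 2 tables of 23287 names, treated as normalized separately. TopHat2 2.3.0, Cufflinks 1.2.1 and the hg19 build are named per the submitters' processing notes. The sources used here do not give their roles, nor whether counting used strand. All columns of the tables were mapped to labelled samples. Entries with an NM_ identifier (18763) and a mean of at least 1 RPKM over a pair were compared. Each library was scaled to equal medians, and differences were taken on log2(scaled RPKM + 1), which understates changes of low genes. A call was a difference of at least 1 log2 unit. With 1 library per group there was no test, interval or p-value. Depth is not in the tables and was estimated from the spacing of low RPKM values. RefSeq promoter sequences were of GRCh38.p14, and GC content and length came from a transcript file matching 97.1% of tested entries. A primed list member that is counted in its list is not reported here by name. The lists (29) and members were chosen with earlier results of these data known. Named genes were drawn from the naive and primed list members and from up to 4 of each other list with the largest differences. The 15 largest per direction with at least 5 RPKM were added. Not every member of the naive and primed lists is named in the text. Other list members that the text names (DCN, LUM, SPARC, CDX2, GATA3, TFAP2A, CGA, SOX17, FOXA2, FOXA1 and SOX2) were chosen after their values were seen. Sum, median-of-ratios, quantile and no scaling, another pseudocount, other filters and non-coding entries were tried. Correction for GC content and length, and the other shRNA libraries in place of Ctrl, were added after seeing the data. Python 3.11.15, pandas 2.3.3, numpy 2.4.6, scipy 1.17.1 and matplotlib 3.10.9 were used, and the calls were tested on simulated data.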

Additional observations from a re-analysis of the deposited data

Results flagged for a closer look

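The results below changed in opposite directions in the 2 same-table pairs, Ctrl 5iLA H7 minus Ctrl Primed H1 and untreated 5iLA H7 minus untreated primed H7. With 1 library per group the difference between the pairs was not tested, and the line differs in the first pair. The median of trophoblast and amnion markers was -1.19 in the Ctrl shRNA pair and 1.97 in the untreated pair. Fibroblast and feeder markers had medians of -2.50 in the Ctrl shRNA pair and 1.12 in the untreated pair. Replication-dependent histones had medians of 5.63 in the Ctrl shRNA pair and -1.03 in the untreated pair, and HIST1H1B was at 7.33 in the Ctrl shRNA pair and -3.64 in the untreated pair; histone RNA was nearly missing from Ctrl Primed H1, at 0.0176% of mRNA-entry RPKM. PRTG was at -2.36 in the Ctrl shRNA pair and 2.80 in the untreated pair. TAGLN was at -3.53 in the Ctrl shRNA pair and 2.07 in the untreated pair. CPE was at -2.84 in the Ctrl shRNA pair and 2.201 in the untreated pair. ACTA2 was at -2.50 in the Ctrl shRNA pair and 3.32 in the untreated pair.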

How the results depend on the processing

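No paired analysis was possible because each group holds 1 library, and for the same reason no library could be left out within a group. Of 223 list medians under settings listed in advance, 159 moved by less than the spread of the shRNA libraries, 63 by more, and 1 median past the 2-fold threshold changed sign. Counting medians under that threshold as well, 18 changed sign, in 7 lists, and 18 in 12 lists did so under settings added later. Of 1270 values of named genes, 1141 moved by less and 129 by more. Of genes past the 2-fold threshold as reported, 0 changed sign, and changes of sign under it were not counted for genes. The scaling alternatives put the median of all genes at -0.05 without scaling and -0.07 with equal sums, against 0.06 as reported, so changes are read relative to that shift. With a pseudocount of 0.1, 1105 genes were higher, against 721 as reported, and the medians became -3.10 (primed genes), 5.34 (naive, Ctrl shRNA pair), 3.62 (naive, untreated pair) and -5.10 (primed, Ctrl shRNA pair). Without scaling these pairs gave 3.03, 2.18 and -4.10. A filter at 5 RPKM left 384 genes higher and 421 lower, and put the primed transcription factor median at 0.00802. With no filter the naive median was 1.45 and the primed one -1.49. In settings added after seeing the data, uCCNE1 in place of Ctrl gave 636 genes lower, a naive median of 1.397, a primed one of -1.46 and an endoderm one of 0.15. It turned TET2 (0.16), PFKP (0.37), COL4A1 (0.14) and COL4A2 (0.16). With pCCNE1 in place of Ctrl the primed median was -1.57 and the mesoderm one 0.00868, and it turned TET2 (0.23), PFKP (0.40) and COL4A2 (0.26). The interferon median was 1.21 with the filter at 5 RPKM, 0.10 with quantile normalization and 0.52 with uCCNE1, against -0.01 as reported, and the histone one -0.59 with uCCNE1, against 0.28. With uCCNE1 the LIF-STAT3 median was -0.46 and the integrated stress response one -0.29, against 0.19 and 0.25 as reported. The cause was not tested. With no replicates, culture-to-culture spread limits every difference, and genes under about 0.1 RPKM rest on a few reads.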
